A study of Mus musculus with 2 samples.

Results

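The cells described here are single cells of the mouse embryo that carried messenger RNA of Gfi1, Neurl3 and Cdh5 together. They were called EHT cells, for the endothelial-to-hematopoietic transition, and numbered 213 of 2139 sequenced cells (9.96%). They were selected on their own counts: each held at least 1 unique molecular identifier (UMI, one counted RNA molecule) of Gfi1, of Neurl3 and of Cdh5, less than 500 CPM (counts scaled to a common total per cell, 1e6 UMIs) of the summed macrophage genes C1qa, C1qb and C1qc, less than 500 CPM of the summed platelet genes Gp9, Gp1bb, Ppbp and Treml1, and less than 50 CPM of the Fc receptor gene Fcgr3. The levels that chose the cells are given as a description, and the contrast of these cells with other cells was not tested.

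The cells came from the caudal region of mouse embryos at embryonic day 10 and had been sorted as CD31+CD44+. CD31 is an endothelial surface protein and CD44 is raised on aortic endothelium that turns towards blood. Conditional knockout embryos (cKO) carried VEC-Cre and Nupr1 fl/fl, so that Nupr1 was lost from the endothelial stage on in cells that express the Cdh5-driven recombinase, and not before it. All mice were kept on a C57BL/6 background. Controls were littermates with Nupr1 fl/fl or Nupr1 fl/+, per the study's text, and the sample labels call them WT. Cells of the genotypes carried different hashtags and were pooled on one droplet lane in each of 2 replicates, which gave 57 and 44 control EHT cells and 68 and 44 cKO EHT cells in replicates 1 and 2. UMIs were summed per genotype and replicate, and these 4 sums are the units of every comparison of genotypes. How many embryos each sum holds is not given in the sources used here.

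Blood stem cells arise in the embryo from hemogenic endothelium on the floor of the dorsal aorta. A flat arterial cell first lowers its arterial programme under the transcription factor Runx1, then rounds up, loses its junctions and joins an intra-aortic cluster, where it acquires blood surface proteins. Gfi1, a transcriptional repressor, is a direct Runx1 target that silences endothelial genes in these cells. Neurl3 encodes a ubiquitin ligase and marks hemogenic endothelium, and Cdh5 encodes VE-cadherin, the adhesion protein of endothelial junctions.

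On GRCm38, Gfi1 lies on the minus strand at chr5:107716657-107726036, Neurl3 on the minus strand at chr1:36264597-36274679 and Cdh5 on the plus strand at chr8:104101625-104144511. Hlf, a marker of the same cells that was not used to choose them, lies on the minus strand at chr11:90336536-90390895. The promoters of Gfi1, Neurl3 and Hlf are shown because Gfi1 and Neurl3 chose the cells and Hlf was lower in every comparison set. Each runs from 250 bases before to 50 bases after an annotated start (RefSeq, GRCm38.p6) and is written 5′ to 3′ on the gene's own strand, with matches to 4 motifs on either strand in capitals. The motif searched for RUNX factors, the family of Runx1, was TGTGGT, or with its other common spelling TGCGGT. The motif searched for ETS factors, the family of Erg and Spi1, was GGAAG, which reads CTTCC when it lies on the opposite strand of the gene. The motif searched for the zinc finger family of Gata2 was AGATAA, which on the opposite strand reads TTATCT. The motif searched for E-box factors, the family of Tal1, was CAGCTG, which is the same on both strands. Gfi1 had 2 start sites in the table, at chr5:107725756-107726055 and chr5:107724294-107724593, Neurl3 had 1 at chr1:36273376-36273675 and Hlf had 1 at chr11:90390868-90391167, all on the minus strand.
Gfi1, start site 1: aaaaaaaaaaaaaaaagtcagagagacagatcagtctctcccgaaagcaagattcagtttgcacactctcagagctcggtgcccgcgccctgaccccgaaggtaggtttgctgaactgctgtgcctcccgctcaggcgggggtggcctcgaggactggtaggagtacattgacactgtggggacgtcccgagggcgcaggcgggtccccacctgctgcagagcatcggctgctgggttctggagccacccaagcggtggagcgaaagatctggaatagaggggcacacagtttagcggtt
Gfi1, start site 2: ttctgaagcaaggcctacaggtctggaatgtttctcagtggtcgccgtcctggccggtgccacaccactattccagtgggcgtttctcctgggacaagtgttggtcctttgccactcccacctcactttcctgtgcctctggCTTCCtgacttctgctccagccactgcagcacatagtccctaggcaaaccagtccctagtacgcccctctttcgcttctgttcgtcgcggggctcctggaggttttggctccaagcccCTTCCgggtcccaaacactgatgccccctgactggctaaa
Neurl3: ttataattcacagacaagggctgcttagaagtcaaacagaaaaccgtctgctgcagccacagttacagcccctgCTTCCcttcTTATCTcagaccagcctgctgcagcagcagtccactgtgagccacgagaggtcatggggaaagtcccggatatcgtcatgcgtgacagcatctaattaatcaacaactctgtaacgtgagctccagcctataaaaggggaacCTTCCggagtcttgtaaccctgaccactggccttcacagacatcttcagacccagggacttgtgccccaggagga
Hlf: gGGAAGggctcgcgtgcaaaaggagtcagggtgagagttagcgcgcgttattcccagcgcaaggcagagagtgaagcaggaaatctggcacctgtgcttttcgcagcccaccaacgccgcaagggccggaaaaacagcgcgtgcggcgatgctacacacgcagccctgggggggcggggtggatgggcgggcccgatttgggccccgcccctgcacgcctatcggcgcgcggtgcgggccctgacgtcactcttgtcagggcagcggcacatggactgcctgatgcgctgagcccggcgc
The window of the other Gfi1 start held 2 ETS matches, that of Neurl3 held 2 ETS matches and 1 GATA match, and that of Hlf held 1 ETS match. Gfi1 start site 1 held none of the 4 motifs, and none of the 4 windows held the RUNX letters. Among all 32851 promoter windows of 300 bases, 71.4% held the ETS letters, 22.4% the RUNX letters, 16.3% the E-box letters and 11.2% the GATA letters. These matches describe the letters of the windows and do not show binding.

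The label was checked against 7 markers: the 3 genes used for the choice and Procr, Kit, Hlf and Spi1. Procr encodes the endothelial protein C receptor, Kit the receptor of stem cell factor, Hlf a transcription factor of stem cells and Spi1 the myeloid and lymphoid transcription factor PU.1. All 4 of the markers that were not used were detected together in 161 of 213 EHT cells (75.6%), against 54 of 1926 other cells (2.80%). Procr was detected in 94.4%, Spi1 in 91.5%, Kit in 90.6% and Hlf in 88.3% of the EHT cells. In all other cells, with a median of 55044.5 UMIs against 53635, Procr was detected in 32.7%, Spi1 in 64.6%, Kit in 28.6% and Hlf in 9.87%. Single markers were not particular to the EHT cells, as Procr was detected in 82.1% of cells of the arterial set and Spi1 in every cell of the progenitor set, both defined below. After thinning every cell to 6000 UMIs, Spi1 was found in 64.3%, Procr in 54.5%, Kit in 41.8% and Hlf in 35.7% of the EHT cells, and in 49.4%, 15.4%, 8.02% and 3.75% of all other cells.

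Many cells sat near the limit of the choice. Exactly 1 UMI of Gfi1 was counted in 41 of the EHT cells, whose median was 4 UMIs and whose highest was 22, while 173 cells met every other condition and lacked Gfi1. For Neurl3 the corresponding numbers were 26 cells with 1 UMI and 29 cells that lacked it alone, with a median of 4 and a highest count of 20. For Cdh5 they were 5 and 8 cells, with a median of 14 and a highest count of 124. The exclusions removed 20 of 233 cells, 19 of them by Fcgr3, for which the nearest kept cell stood at 49.7 CPM and the nearest removed cell at 51.7 CPM. The removed platelet-positive cell held 12635 CPM of the platelet genes, whereas no EHT cell exceeded 250 CPM. The highest C1q sum in an EHT cell was 82.0 CPM, and no cell was removed by that condition.

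The EHT cells were deeply counted, with 8117 to 154669 UMIs per cell and a median of 53635. Medians in the 4 sums lay between 51048 and 54262.5 UMIs. The libraries shared 0 barcodes. Of the EHT cells, 10 lay outside the study's stated limits on genes, UMIs and mitochondrial reads, all in replicate 1 (2 control and 8 cKO cells). For comparison, 363 arterial cells (Cdh5 and Gja5 detected, Gfi1 and Neurl3 at 0 UMIs) had a median of 23755 UMIs, 202 single-positive cells (Cdh5 and exactly 1 of Gfi1 and Neurl3) 35308.5 UMIs, and 50 progenitors (Ptprc and Myb detected, Cdh5 at 0 UMIs) 83130.5 UMIs. The progenitor sums held 8 and 14 control and 4 and 24 cKO cells in replicates 1 and 2, so means in progenitors rest on few cells. Detection depends on depth: when every cell was thinned to 6000 UMIs and the whole choice was applied again, exclusions included, 31 cells met it. All levels below are CPM of the sums, and levels are not compared between genes. A gene was described where it reached a mean of 20 CPM in at least 1 of the compared sets. A gene near 0 in one set therefore enters only through the set where it is high, and medians over a list are given over all its genes, with no minimum. Of the genes named against other cells, the 7 markers, the 10 genes outside the lists and up to 5 per list were taken by a rule of size. The other genes named there, Myb, Ptprc, Coro1a, Gja4, Pecam1, Dll4, Cldn5 and Vim among them, were chosen after their values were seen.

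Gfi1 stood at 88.5 and 81.9 CPM in the control sums and at 90.6 and 77.8 CPM in the cKO sums of EHT cells, with a mean of 84.7 ± 5.91 (SD, n = 4) against 3.38 in all other cells. Neurl3 stood at 77.8 and 71.4 CPM in control and 94.5 and 73.9 CPM in cKO, against 13.5 in all other cells. Cdh5 was at 295 and 368 CPM in control and 354 and 229 CPM in cKO, and its mean of 312 ± 63.4 (SD, n = 4) was below the 1019 ± 98.5 (SD, n = 4) of arterial cells. All 3 genes chose the cells, and the genotype groups overlapped in each.

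Hlf, among the markers that were not used, was low in each of the comparison sets. It was at 117 and 79.3 CPM in control and 142 and 101 CPM in cKO EHT cells, against means of 2.36 in arterial cells, 29.2 in progenitors and 11.1 in all other cells. Kit was at 135, 65.8, 139 and 90.6 CPM in the same order, and was higher in replicate 1 than in replicate 2 in both genotypes. Procr was at 172 and 207 CPM in control and 122 and 160 CPM in cKO, with a mean of 165 ± 35.3 (SD, n = 4) that lay near the 116 ± 28.1 of arterial cells and far above the 4.05 of progenitors. Spi1 was at 227, 234, 207 and 316 CPM, near the 222 ± 92.1 of all other cells and far above the 2.58 of arterial cells. Procr was thus shared with the arterial side and Spi1 with the blood side, while Hlf was lower on both.

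**Figure D1:**
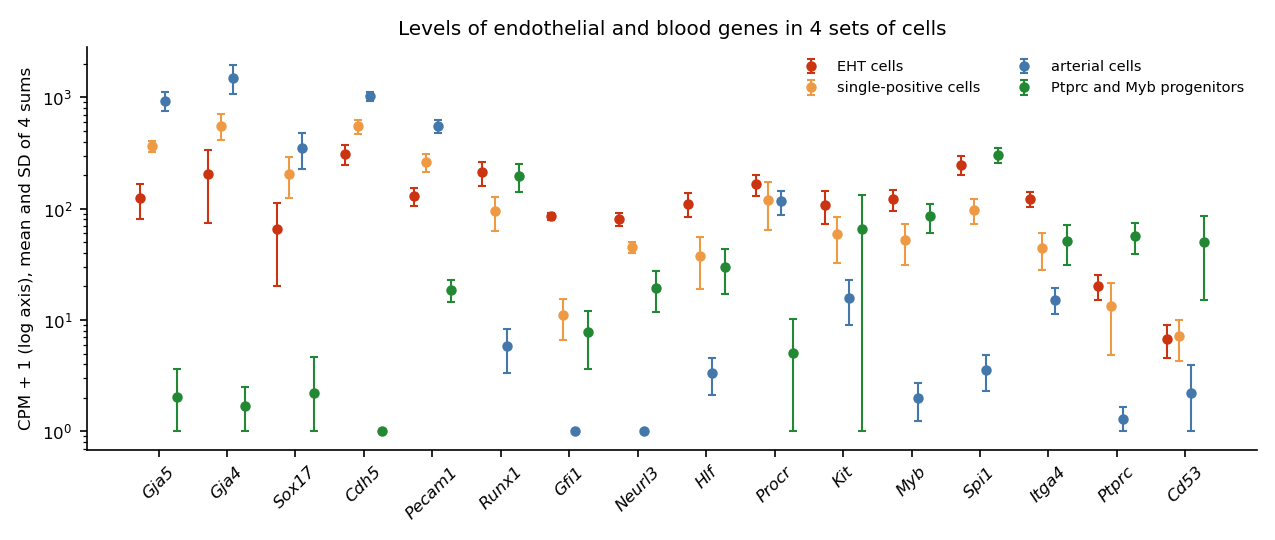
Level of 16 endothelial and blood genes in EHT cells, single-positive cells, arterial cells and progenitors, as CPM + 1 on a log axis, with the mean (point) and SD (bar, cut at a CPM of 0) of the 4 sums. Hlf averaged 110 CPM in EHT cells against 2.36 in arterial cells, whereas Gja5, used to define the arterial cells, averaged 123 against 929 CPM.

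Genes counted as higher in EHT cells than in all other cells were those at least 2-fold higher in each of the 4 pairs of sums with a mean of at least 20 CPM. They numbered 53 of 5951 genes described (0.891%), and 204 genes were lower by the same rule (3.43%). Of the list of 20 hemogenic endothelium and pre-stem-cell genes, 15 could be described and 9 were higher, and 5 of the 15 were described only through their level in EHT cells. The median log2 ratio over all 20 was 1.78, against -0.02 over all genes with a UMI. The choice of cells used 2 of the 9, Gfi1 and Neurl3. Mycn, a growth-promoting transcription factor, was at 91.2, 131, 98.4 and 136 CPM, with a mean of 114 against 18.1 in all other cells. Ikzf2, which encodes the zinc finger factor Helios, averaged 94.4 CPM against 17.1. Adgrg1, the adhesion receptor GPR56 of stem cells, averaged 208 ± 21.8 CPM (SD, n = 4) against 65.9.

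The genes in no list that were highest in ratio were Pdzk1ip1, Fam181b, Sfrp2, Lmo1, Gsta4, Art4, Serpina3g, Capsl, Cd24a and Zfp503. Pdzk1ip1, a gene neighbouring Tal1, was at 37.8, 35.5, 35.8 and 42.3 CPM in EHT cells against a mean of 3.62 in all other cells. Fam181b was at 115, 104, 110 and 104 CPM against 13.2. Sfrp2, a secreted modulator of Wnt signalling, averaged 86.4 CPM against 5.41 in arterial cells, 21.2 in progenitors and 10.4 in all other cells. Lmo1, a LIM-only transcriptional partner, averaged 46.7 CPM against 5.32 in all other cells. Cd24a, a surface glycoprotein, averaged 225 CPM against 45.7. Serpina3g, a protease inhibitor gene, was uneven between the sums, with 79.6 and 142 CPM in control and 28.3 and 118 CPM in cKO. Of the 53 higher genes, 51 had a mean above those of both arterial cells and progenitors, and 23 were at least 2-fold above both means. The 53 genes were picked from these same sums, and all other cells include both sets, so these counts are a description. Gfi1 and Neurl3, which chose the cells, are among the 53.

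The anterior-posterior identity of the cells was read from Hox genes, which code for homeodomain factors of the body axis. Of 24 Hox genes, 4 were high enough to be described, 3 of these only through EHT cells, and 2 were higher in EHT cells than in all other cells. Hoxa9, a factor of stem cell self-renewal, was at 152, 148, 143 and 163 CPM, with a mean of 152 against 29.4 in all other cells, 53.8 in arterial cells and 75.3 in progenitors. Hoxa5 averaged 46.6 CPM against 10.1, and Hoxa7 averaged 59.5 against 18.7. Hoxb7 ran the other way against arterial cells, at 9.64 CPM in EHT cells and 46.7 in arterial cells. In that contrast 3 of 9 described Hox genes were lower and none was higher, beside 10.9% lower and 4.46% higher over all genes described.

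The shared core of endothelial and blood transcription factors, the heptad of Tal1, Lyl1, Lmo2, Gata2, Runx1, Erg and Fli1, was detected in the EHT cells, each gene in at least 86.9% of cells. None of its 7 members passed the 2-fold rule against all other cells, and Runx1 alone did against arterial cells. Runx1, the factor required for the transition, was at 227 and 169 CPM in control and 276 and 172 CPM in cKO EHT cells, and averaged 4.85 CPM in arterial cells and 196 in progenitors. Erg averaged 57.1 CPM in EHT cells and 64.2 in arterial cells, and was lower in progenitors at 13.6 CPM. Gata2 averaged 62.5, 46.2 and 21.6 CPM in EHT cells, arterial cells and progenitors.

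Against arterial cells, 280 of 6275 described genes were higher (4.46%) and 687 were lower (10.9%). Gja5 was used to define the arterial cells, and Gfi1 and Neurl3 were at 0 there by definition, so these 3 genes differ by construction. Of 30 genes of the onset of the blood programme, 10 were higher, none was lower and 13 were below 20 CPM in both sets. Of the 17 that were described, 10 were described only through their level in EHT cells, so their count is a description. The median log2 ratio over all 30 was 2.44, against -0.03 over all genes with a UMI. Myb, a transcription factor of definitive blood progenitors, was at 123, 82.6, 145 and 130 CPM against 0.985 in arterial cells. Coro1a, an actin regulator of white blood cells, averaged 461 CPM against 14.7, and Ptpn6, the phosphatase SHP-1, averaged 105 against 4.73. Ikzf1, the lymphoid factor Ikaros, averaged 37.2 CPM against 0.702.

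Several surface and signalling genes of the same list, chosen after their values were seen, were below their levels in progenitors. Ptprc, which encodes CD45, was used to define the progenitors and is higher there by construction. It was at 21.8 and 11.6 CPM in control and 22.4 and 20.6 CPM in cKO EHT cells, against 55.4 in progenitors and 0.291 in arterial cells, and was detected in 40.8% of the EHT cells. Rac2, a GTPase of white blood cells, averaged 65.2 CPM in EHT cells and 456 in progenitors. Cd53, a leukocyte tetraspanin, averaged 5.78 against 49.7 CPM, and Gfi1b, the paralog of Gfi1, 12.6 against 39.9 CPM. Against all other cells, 7 of 28 described genes of this list were lower, among them Csf1r, Fyb, Bin2, Cd53 and Plek, and 2 were higher, Myb and Spn. Of these 28 genes, 11 were described only through the other cells. Spn encodes CD43 and stood at 30.7, 17.9, 28.1 and 21.7 CPM against a mean of 8.46 in all other cells.

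Arterial and general endothelial genes were lower in EHT cells than in arterial cells but were not absent. Of 20 arterial genes, 18 were lower and none was higher, beside 10.9% lower and 4.46% higher over all genes described. The median log2 ratio was -2.71 against -0.03 over all genes with a UMI, and 6 of the 20 were described only through arterial cells. Gja4, which encodes the gap junction protein connexin 37, was at 129 and 397 CPM in control and 133 and 155 CPM in cKO EHT cells, against 1505 ± 436 (SD, n = 4) in arterial cells. Sox17, an arterial transcription factor, was at 38.7, 134, 44.3 and 43.7 CPM against 349 ± 124. For both genes control replicate 2 stood apart from the other 3 sums. Hey1, a target of Notch signalling, averaged 37.5 CPM against 237, and Unc5b, a netrin receptor, 30.7 against 318. Hes1 averaged 69.8 against 157 CPM and Bmx 24.1 against 75.0 CPM, and neither passed the 2-fold rule in all 4 pairs.

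Of 26 pan-endothelial genes, 22 were lower than in arterial cells and none was higher (median log2 ratio -1.98). The shares over all genes described were 10.9% lower and 4.46% higher. Pecam1, which encodes CD31, the protein used for the sort, was at 110, 162, 127 and 115 CPM in EHT cells and averaged 553 in arterial cells and 17.8 in progenitors. Kdr, the main receptor of vascular endothelial growth factor, averaged 43.4 against 303 CPM. Egfl7, a secreted endothelial protein, averaged 434 against 846 CPM and was not counted as lower. Venous genes were low throughout: Nr2f2, the factor that sets venous identity, was at most 0.374 CPM in any EHT sum, and Stab2 was at 0 in all 4.

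Neurl3 belongs to a family of regulators of Notch ligands, and Notch signalling keeps arterial identity. Of 22 Notch genes, 12 were described against arterial cells, 5 of these only through arterial cells. Of the 12, 8 were lower and 1, Neurl3 itself, was higher, beside 10.9% lower and 4.46% higher over all genes described. Neurl3 chose the EHT cells and is at 0 in arterial cells by definition, so it is higher by construction. The median log2 ratio over all 22 was -1.31, against -0.03 over all genes with a UMI. The ligand Dll4 averaged 17.2 CPM against 113, the ligand Jag1 12.5 against 90.9 and the receptor Notch1 35.4 against 159. Mfng, which adds sugars to Notch receptors, averaged 131 CPM in EHT cells and 151 in arterial cells.

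Of 22 junction and matrix genes, 20 were described against arterial cells, and of these 13 were lower and 2 higher. Over all genes described, 10.9% were lower and 4.46% higher. Of the 20, 3 were described only through EHT cells and 3 only through arterial cells. The median log2 ratio over all 22 was -1.65, against -0.03 over all genes with a UMI. Cldn5, the tight-junction claudin of endothelium, averaged 281 CPM against 1293, and the basement membrane collagen genes Col4a1 and Col4a2 averaged 216 against 1577 and 118 against 849 CPM. Both higher genes were integrin genes, Itga4, which averaged 121 against 14.3 CPM, and Itgb3, which averaged 65.3 against 9.75 CPM. Both were below 20 CPM in arterial cells and so were described only through EHT cells. Fn1, the fibronectin gene, averaged 364 CPM against 690 in arterial cells and 160 in all other cells.

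Acta2, which encodes smooth-muscle actin, was at 106 and 304 CPM in control and 157 and 165 CPM in cKO EHT cells, with a mean of 183 ± 84.7 (SD, n = 4) against 92.4 ± 72.0 in arterial cells and 0.217 in progenitors. It was detected in 55.4% of EHT cells, 19.6% of arterial cells and 2% of progenitors, which differed in depth, and after thinning to 6000 UMIs in 28.6% of EHT cells and 11.8% of arterial cells. It did not pass the 2-fold rule in all 4 pairs in either contrast. Vim, which encodes the intermediate filament protein vimentin, averaged 1079 CPM against 3772 in arterial cells, and Cald1, a regulator of contraction, 56.8 against 529. None of the 16 described genes of the contractile list was higher than in arterial cells and 4 were lower. Beside these stand 4.46% higher and 10.9% lower over all genes described. The epithelial keratin gene Krt18 was at 112, 116, 125 and 121 CPM in EHT cells, against means of 35.1 in arterial cells, 17.6 in progenitors and 21.2 in all other cells, while its usual partner Krt8 averaged 1.16 CPM.

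Of 20 S-phase genes, 4 were higher in EHT cells than in arterial cells by the 2-fold rule, beside 4.46% over all genes described. Their median log2 ratio was 0.95, against -0.03 over all genes with a UMI. Among the 20, 4 were described only through EHT cells, so the count is a description. Mcm5, a subunit of the replicative helicase, averaged 118 CPM against 42.1. None of 20 genes of the G2 and M phases passed the 2-fold rule (median log2 ratio 0.50). Mki67 was detected in 74.6% of EHT cells and 35.3% of arterial cells, and after thinning in 34.3% and 23.0%, while its level was 102 CPM in EHT cells and 115 CPM in arterial cells. The levels differed by less than the spread between sums, and no order was read from the detection. Cdkn1c, a cell-cycle inhibitor of endothelium and stem cells, was at 819, 713, 741 and 592 CPM in EHT cells, below the mean of 1878 in arterial cells and above that of 29.3 in progenitors.

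Several stress genes differed between the pools, in both directions. Hspa1a, an inducible heat-shock gene, was at 1056 and 927 CPM in the replicate 1 sums and at 2521 and 3145 CPM in the replicate 2 sums of EHT cells, and Hspa1b was at 366 and 358 against 1614 and 1714 CPM. Both averaged higher in EHT cells than in arterial cells, where Hspa1a was at 166 and Hspa1b at 101 CPM. The chaperone genes Hsp90aa1 and Hspa5 ran the other way between the pools. Hsp90aa1 was at 2679 and 3042 CPM in replicate 1 against 2185 and 2474 CPM in replicate 2, and Hspa5 at 504 and 534 against 451 and 473 CPM. Of 15 described stress genes, 7 were higher and 2 lower than in arterial cells, beside 4.46% higher and 10.9% lower over all genes described. Of the 15, 1 was described only through EHT cells and 2 only through arterial cells. High stress levels were not particular to EHT cells. The 21 stress genes summed to a mean of 11079 CPM in EHT cells, 4701 in arterial cells and 11569 in progenitors. Of 209 listed genes averaging at least 20 CPM in EHT cells, 68 were higher in both replicate 1 sums than in both replicate 2 sums and 62 were lower in both. The share over all genes is not given here, so these counts describe the listed genes only.

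**Figure D2:**
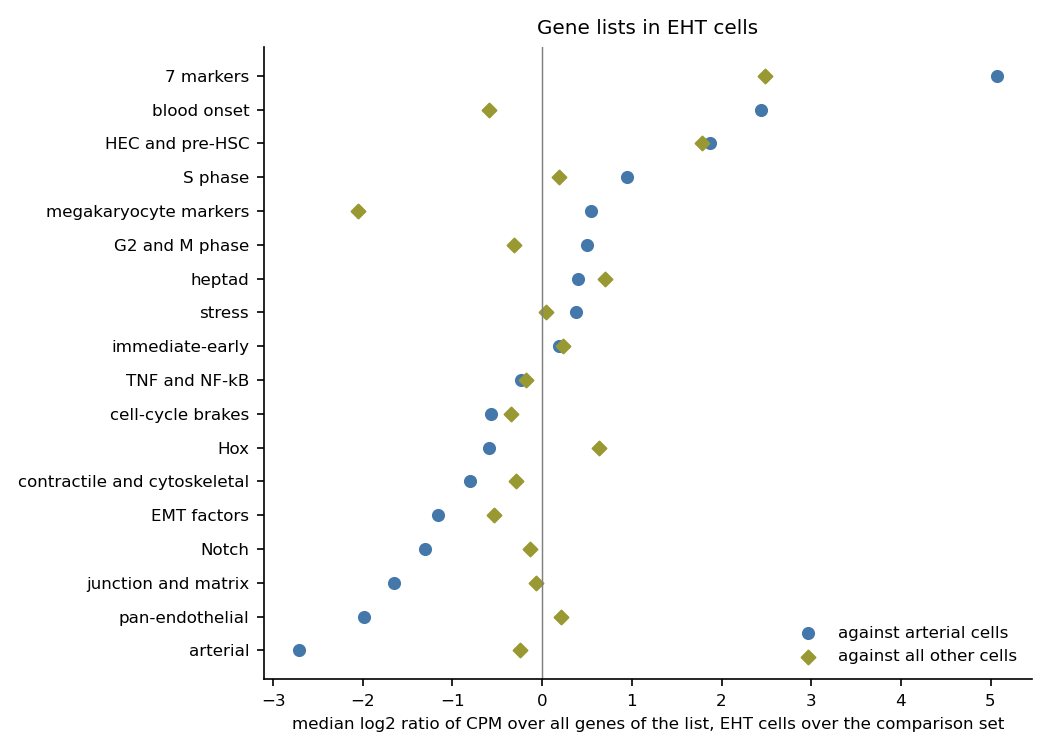
Median log2 ratio of CPM over all genes of each list, with no minimum level, EHT cells over arterial cells (circles) and over all other cells (diamonds), with no test; HEC and pre-HSC are the hemogenic endothelium and pre-stem-cell genes, and EMT stands for epithelial-to-mesenchymal transition. The blood onset list lay at 2.44 and the arterial list at -2.71 against arterial cells, while they lay at -0.59 and -0.25 against all other cells.

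Summed markers of other cell types were below their mean in all other cells for the macrophage, megakaryocyte, granulocyte and monocyte, erythroid and mesenchymal lists, and above it for the epithelial and neural list. Of the cells with Gfi1, Neurl3 and Cdh5, the exclusions had removed 20. Of these, 19 were removed by Fcgr3, 1 by the platelet genes and none by the C1q genes. The 14 macrophage genes summed to 15.2 to 45.1 CPM in the EHT sums against 1004 to 2868 CPM in the sums of all other cells, with 3 of the 14 at 0, and C1qa, C1qb and C1qc among these markers were used in the choice. The 14 megakaryocyte genes summed to 277 to 331 CPM, against 247 to 6459 CPM in all other cells, 420 to 662 CPM in arterial cells and 82.8 to 173 CPM in progenitors. They had 1 gene at 0 and contained Vwf (130 CPM) and Itgb3, which EHT cells shared with other endothelium or blood cells. Gp1bb, Ppbp and Treml1 in this list were limited by the choice of cells. The 12 granulocyte and monocyte genes summed to 147 to 236 CPM, against 335 to 1382 CPM in all other cells and 2.43 to 10.7 CPM in arterial cells, with Ctsg at 0. They were led by Prtn3, a protease gene of myeloid precursors, at 86.7, 114, 74.4 and 127 CPM against a mean of 578 in progenitors. Fcgr3, also in this list, was limited by the choice of cells. The 12 erythroid genes summed to 28.4 to 71.1 CPM with 4 at 0, against 71.9 to 726 CPM in all other cells. The 12 mesenchymal genes summed to 13.5 to 57.2 CPM with 3 at 0, Col1a1 among them, against an overlapping 15.7 to 179 CPM. The 10 epithelial and neural genes summed to 115 to 130 CPM with 5 at 0, most of it Krt18, against 19.0 to 32.8 CPM in all other cells and 21.5 to 55.9 CPM in arterial cells. Pf4, an abundant platelet transcript, was at 15.8 and 17.3 CPM in replicate 1 and at 56.5 and 68.6 CPM in replicate 2. Its part, and that of free RNA in general, in other levels was not tested.

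Single cells with endothelial and blood transcripts can also be pairs of cells in one droplet, and hashtags do not reveal pairs of the same genotype. No caller of doublets was run. The EHT median of 53635 UMIs lay between those of arterial cells and progenitors, and 20 EHT cells exceeded 2 times that median. The part of doublets in the levels was not tested.

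The EHT cells differed widely among themselves. The summed level of the 20 arterial genes in a cell ran from 0 to 8648 CPM, with 94.0 CPM at the 10th percentile, a median of 459 and 3708 CPM at the 90th percentile. The median was 6796 CPM in arterial cells and 43.9 CPM in progenitors, so the range within the EHT cells spanned the medians of both. The summed level of the 30 blood onset genes was more even, with 1395 CPM at the 10th percentile, a median of 2483 and 3523 CPM at the 90th, between the medians of 1356 CPM in arterial cells and 4640 CPM in progenitors. Across the 213 cells, those with more of the arterial genes held less of the blood onset genes, with a Spearman rho of -0.745 and a Pearson r of -0.641. Within the 4 sums rho lay between -0.526 and -0.859. The points share libraries and a common denominator, and the arterial and blood sums correlated with the UMIs of a cell at rho -0.366 and 0.417, so these values are descriptions across cells.

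Detection of single genes showed the same mixture. Gja5, the connexin 40 gene of arteries, and Ptprc were detected together in 30 EHT cells, Gja5 without Ptprc in 81, Ptprc without Gja5 in 57 and neither in 45. Median UMIs were 61030, 45295, 67720 and 45447 in these 4 classes, so detection of Ptprc went with depth. Gja5 and Spi1 were detected together in 94 EHT cells (44.1%). Among the 363 arterial cells, 3 held Ptprc, and among the 50 progenitors, 3 held Gja5. Gja5 was detected in 54.4% and 54.5% of control and 57.4% and 38.6% of cKO EHT cells.

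**Figure D3:**
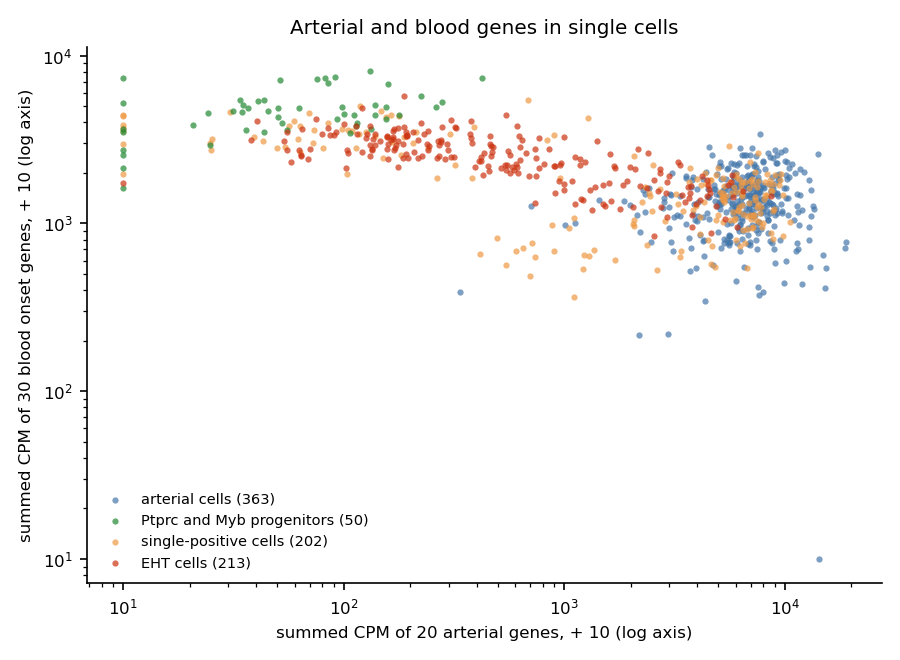
Summed CPM + 10 of 20 arterial genes (horizontal, log axis) and of 30 blood onset genes (vertical, log axis) in single EHT cells, single-positive cells, arterial cells and progenitors, with each point a cell. EHT cells spread from 0 to 8648 CPM of arterial genes, across the medians of arterial cells (6796 CPM) and progenitors (43.9 CPM).

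The study asked how loss of Nupr1 changes the transition, and the targeted gene was examined first. Nupr1 encodes a small stress-response chromatin protein and lies on the minus strand at chr7:126623249-126630861. It stood at 38.7 and 21.3 CPM in control and at 2.06 and 2.49 CPM in cKO EHT cells, from 130, 57, 8 and 7 UMIs. The control sums were both higher than the cKO sums. The difference was -3.71 ± 0.46 on the log2 scale (SE, n = 2 sums per genotype), with an adjusted p of 0.00464 in the quasi-likelihood test of edgeR. At least 1 UMI was found in 25 of 57 and 13 of 44 control cells and in 6 of 68 and 6 of 44 cKO cells. No cKO cell held more than 2 UMIs of it, whereas the highest counts in control cells were 18 and 28. In arterial cells Nupr1 was at 1.61 and 7.82 CPM in control and at 0 in both cKO sums, from 0 UMIs in each.

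Sex-linked transcripts differed between the genotype groups. Xist, transcribed from the inactive X chromosome, was at 344 and 222 CPM in control and at 1.03 and 86.0 CPM in cKO EHT cells, and the Y-linked gene Ddx3y was at 56.6 CPM in cKO replicate 1 and at 0 in the other 3 sums. Xist without Y-linked genes was found in 54 of 57 and 44 of 44 control cells. In cKO replicate 1, 61 of 68 cells held Y-linked genes without Xist, and in cKO replicate 2, 25 of 44 held Xist and 19 of 44 held neither. An effect of genotype cannot be told apart from one of embryo sex in replicate 1, and the part of sex in the genotype values that follow was not tested.

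The share of EHT cells among all cells was higher in replicate 1 than in replicate 2 in both genotypes. It was 17.1% of 334 control cells (95% exact binomial interval 13.2 to 21.5) and 19.8% of 344 cKO cells (15.7 to 24.4) in replicate 1, and 5.88% of 748 control cells (4.31 to 7.82) and 6.17% of 713 cKO cells (4.52 to 8.20) in replicate 2. The intervals cover counting error only and overlapped between genotypes in each replicate. The mean share was 12.97% ± 9.61 in cKO and 11.5% ± 7.91 in control (SD, n = 2 each), a difference of 1.50 percentage points with a two-sided exact permutation p of 0.667. The difference was 2.70 points within replicate 1 and 0.289 points within replicate 2. With 2 sums against 2 the smallest possible p is 0.333.

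Among cells with a Cdh5 UMI that passed the exclusions, the shares of the 4 sums lay closer together. EHT cells made up 23.1% of 247 and 22.4% of 196 control cells and 26.1% of 261 and 21.7% of 203 cKO cells. The difference of means was 1.10 percentage points (two-sided exact permutation p = 1), with 2.98 points in replicate 1 and -0.774 points in replicate 2. Of the 907 Cdh5-positive cells, 213 were EHT cells, so a change of this share cannot be told apart from a change in the number of the other endothelial cells. The sign of the difference turned with a minimum of 2 UMIs of Gfi1 and Neurl3, to -0.243 points among all cells and -3.03 points among Cdh5-positive cells.

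**Figure D4:**
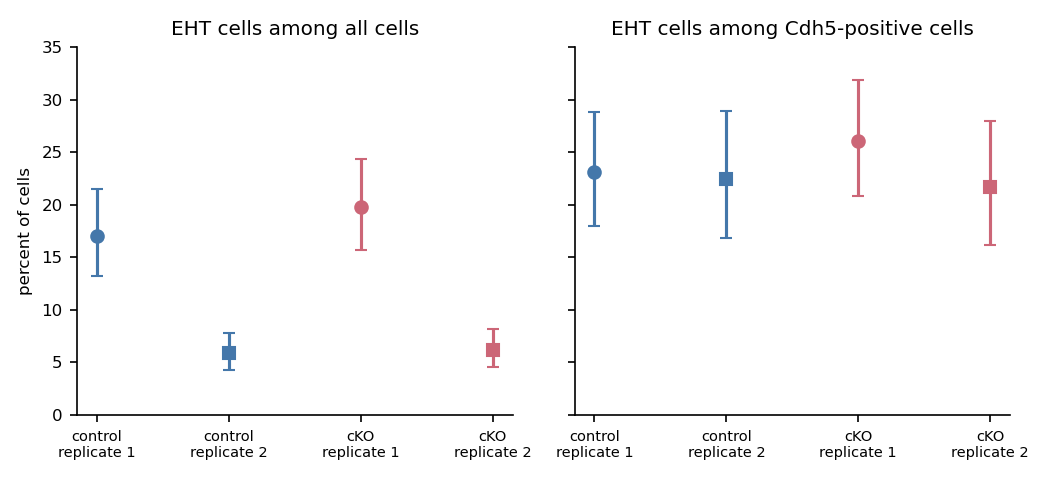
Percentage of EHT cells among all cells and among Cdh5-positive cells in the 4 sums of genotype and replicate, with 95% exact binomial intervals as error bars. Among all cells, replicate 1 (17.1% and 19.8%) stood above replicate 2 (5.88% and 6.17%), while among Cdh5-positive cells the 4 shares lay between 21.7% and 26.1%.

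Across the transcriptome, Nupr1 was the only 1 of 9982 genes tested that differed between cKO and control EHT cells at an adjusted p of 0.05 (0.01%). Unadjusted p was below 0.05 for 88 genes. With the replicate as a block the call was the same (0.01%) and 435 genes had an unadjusted p below 0.05, and with DESeq2 it was the same and 40 did. Without regard to size, 844 genes (8.46%) were higher and 907 (9.09%) were lower in both cKO sums than in both control sums after TMM scaling. Each sum holds the cells of a genotype in a replicate, from a number of embryos that is not given. The p-values therefore measure the spread between sums, and that of embryos and that of pools cannot be told apart.

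None of the 7 markers differed by this test. Differences between cKO and control, on the log2 scale with SE, were -0.00 ± 0.26 for Gfi1, 0.19 ± 0.26 for Neurl3 and -0.18 ± 0.26 for Cdh5. They were -0.41 ± 0.26 for Procr, 0.21 ± 0.32 for Kit, 0.32 ± 0.28 for Hlf and 0.21 ± 0.26 for Spi1. Apart from Procr and Hlf, the differences were smaller than their SE, and a missed threshold does not show equal levels. Procr was lower in both cKO sums than in both control sums, and the sums of Gfi1, Cdh5, Kit, Hlf and Spi1 overlapped. After TMM scaling Neurl3 was higher in both cKO sums (92.4 and 77.1 CPM) than in both control sums (76.9 and 72.0 CPM), whereas without it the sums overlapped.

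Immediate-early genes, which respond within minutes to signals and to handling of cells, had the highest median difference of the lists, and none of them passed the adjusted threshold. Nr4a1, which encodes the nuclear receptor NUR77, was at 60.2 and 56.8 CPM in control and 99.4 and 197 CPM in cKO EHT cells. Both cKO sums were higher, with cKO replicate 2 well above the rest. The log2 difference was 1.37 ± 0.32 (SE, n = 2 sums per genotype), with an unadjusted p of 0.000643 and an adjusted p of 1.00 in edgeR. Egr1, a growth-response factor, was at 59.9 and 57.2 CPM in control and 65.4 and 124 CPM in cKO (0.72 ± 0.32, unadjusted p 0.0378 in edgeR). Of 18 tested genes of this list, 4 had an unadjusted p below 0.05, against 88 of 9982 over all genes. In the same list 5 were higher and none was lower in both cKO sums, against 8.46% and 9.09% over all genes, and the median log2 difference was 0.39 against 0.00. Stress markers varied between pools in the same cells, as given above for Hspa1a, and their part in these values was not tested.

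Tnf, the tumour necrosis factor gene, was at 0.596 and 1.12 CPM in control and 1.03 and 2.13 CPM in cKO EHT cells and was too low to be tested. Of 29 genes of the TNF and NF-kB pathway, 25 were tested and none was called, with a median log2 difference of -0.06. In both cKO sums 2 were higher and 5 lower, and over all genes 8.46% were higher and 9.09% lower. The receptor gene Cd40 had the lowest p of them, at -1.96 ± 0.63 on the log2 scale with an adjusted p of 1.00 in edgeR.

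No gene of the arterial or blood onset lists differed between genotypes by the adjusted test, and the counts of genes higher or lower in both cKO sums stand beside the 8.46% and 9.09% of all genes. Of 20 arterial genes none was called, none was higher and 6 were lower in both cKO sums, with a median log2 difference of -0.31. Gja4 differed by -0.85 ± 0.45 and Sox17 by -0.96 ± 0.49 (adjusted p 1.00 in edgeR for each), and in both control replicate 2 was the highest sum. Of 28 tested blood onset genes none was called, 7 were higher and 1 was lower in both cKO sums, and the median was 0.18. Myb was among the 7, with 0.44 ± 0.27. In single cells, the median summed arterial level was 456 and 601 CPM in the control sums and 599 and 294 CPM in the cKO sums, and that of blood onset was 2438 and 2219 CPM in control and 2331 and 2857 CPM in cKO. The genotypes overlapped in both scores.

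**Figure D5:**
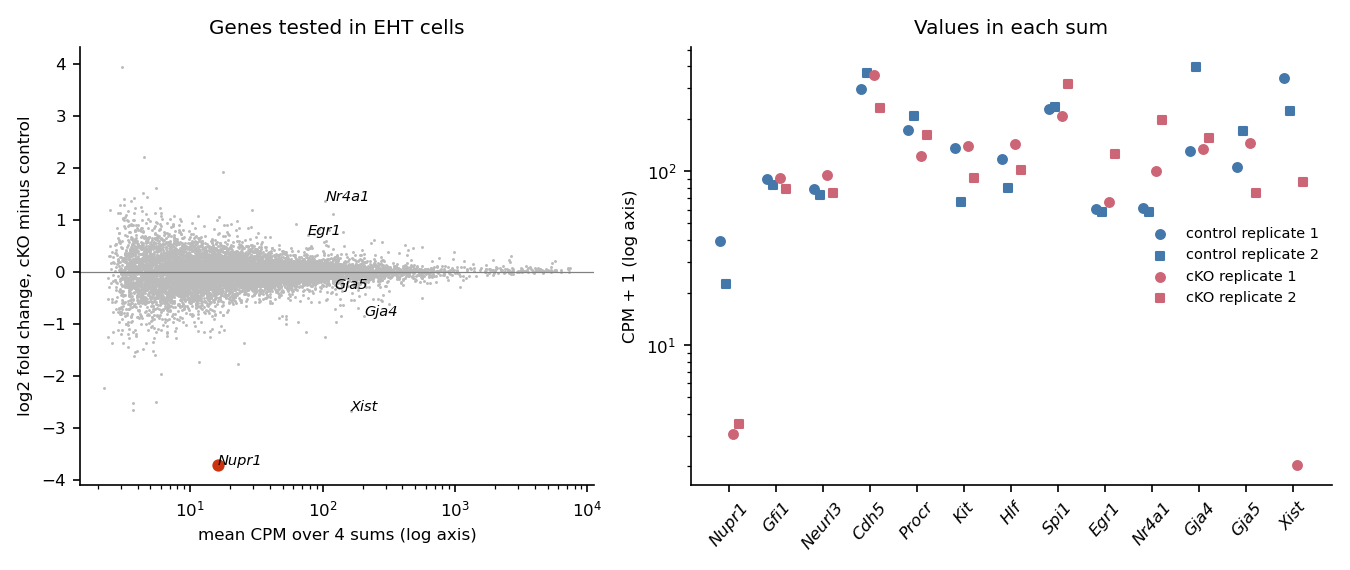
Genotype comparison in EHT cells: left, log2 difference between cKO and control against mean CPM (log axis) for 9982 tested genes, with the called gene in red; right, CPM + 1 (log axis) of 13 genes in each of the 4 sums. Nupr1 at -3.71 is the only called gene, Nr4a1 stands at 1.37, and the 7 markers lie between -0.41 and 0.32.

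The genotype effect in EHT cells was compared with that in arterial cells by an interaction test over 10653 genes and 8 sums. The EHT and arterial sums of a genotype and replicate came from the same hashtagged cells, and the models had no term for that pairing. No gene was called (0%), by edgeR without or with the replicate block (0%) or by DESeq2, and 141 genes had an unadjusted p below 0.05 in edgeR, 463 with the block and 68 in DESeq2. The difference of the effects was 0.79 ± 0.58 for Nr4a1, -0.03 ± 0.55 for Egr1, -0.13 ± 0.40 for Procr and -0.03 ± 0.33 for Cdh5, on the log2 scale with SE. Egr1 differed between cKO and control by 0.72 in EHT cells and 0.76 in arterial cells. Gfi1 and Neurl3 are at 0 UMIs in arterial cells by definition and give no such comparison.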

How the data were processed

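CD31+CD44+ cells were sequenced on a 10x Chromium platform in 2 replicates, each a pool of hashtagged control and cKO cells. The authors aligned reads with Cell Ranger 5.0.1 to mm10 (per the submitters' processing notes and the study's methods) and used HTODemux (Seurat) to keep droplets with a single hashtag. Per the file headers, the deposited tables hold whole-number UMI counts of each cell, not normalized, and its hashtag. All 2139 deposited cells were kept, of which 101, all in replicate 1, fall short of the study's filter (over 1800 genes and 6000 UMIs, under 5% mitochondrial reads).

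The members, the gene lists and the tests were chosen with earlier results of these data known. Cells were selected by the UMI and CPM limits given above, with CPM as UMIs per 1e6 UMIs of a cell or sum. Counts were summed per genotype and replicate (2 genotypes, 2 replicates, 4 sums of 2674836 to 3884044 UMIs). Ratios used a pseudocount of 1 CPM. A gene was higher or lower where CPM differed at least 2-fold in all 4 pairs of sums with a mean of at least 20 CPM in the higher set. The named genes were the 7 markers, up to 5 genes per list with the largest ratio to all other cells and the 10 highest genes outside the lists; the other genes named against other cells, Dll4, Vim and Mcm5 among them, were chosen after their values were seen. For genotype they were Nupr1, the 7 markers, Egr1, Nr4a1, Tnf and up to 10 called genes, with Cd40, Gja4, Sox17, Myb and the sex-linked genes named after their values were seen. Genotypes were compared with edgeR 4.0.16 in R 4.3.3 (filterByExpr, TMM, robust quasi-likelihood fit, Benjamini-Hochberg adjustment over all genes tested, threshold 0.05), without a block as in the study's cell-level test. The scripts were tested on simulated data. Replicate numbers pair the sums because both genotypes shared a pool, and deviations from the genotype means correlated at 0.434 within a number. Shares were compared by exact permutation. Alternatives were DESeq2 1.42.0, RLE scaling, no filter, a replicate block, each sum left out, thinning to 6000 UMIs, other limits of the choice and other folds. Gene positions are from GENCODE M21 on GRCm38 and promoters from RefSeq, both matched by symbol.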

Additional observations from a re-analysis of the deposited data

How the results depend on the processing

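The drop of Nupr1 kept its direction and passed the threshold under the 11 alternatives that could test it, from -4.07 to -3.21 on the log2 scale with adjusted p from 1.8e-11 to 0.0372, and from -4.05 to -3.21 with 1 sum left out. With the replicate block it was -3.74, and the block changed no call: 1 gene between genotypes and 0 genes in the interaction, with share differences of 1.50 and 1.10 points as the means of the differences within a pool. The number of genes called between genotypes was 1, and 11 with no filter (Nr4a1 and Nupr1 among them, 8 higher and 3 lower), 0 at 6000 UMIs, where 40 had an unadjusted p below 0.05 in edgeR and Nupr1 did not pass the filter, and 3 to 15 with 1 sum left out. It was 15 without control replicate 1 (Gja4 and Sox17 among them), 3 without control replicate 2, 6 without cKO replicate 1 (Nr4a1 and Xist among them) and 15 without cKO replicate 2 (Xist and Y-linked genes among them); the lone sum is then assumed to vary like the other group, and the cause was not tested. The interaction called 1 gene, Clec1b, with no filter.

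The difference in the share of EHT cells among all cells was -0.243 points with at least 2 UMIs of Gfi1 and Neurl3, -0.452 with either gene, and -5.30 to 8.29 with 1 sum left out (negative without control replicate 2, -4.10, and without cKO replicate 1, -5.30). Among Cdh5-positive cells it was -3.03 with at least 2 UMIs, -0.481 within the stated cell limits, -1.60 with either gene, and -1.09 (without cKO replicate 1) to 3.29 with 1 sum left out. The cause was not tested.

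Genes higher than in all other cells numbered 53, and 11 at 4-fold, 86 against other Cdh5-positive cells and 56 to 81 with 1 sum left out (81 without control replicate 1). Lower genes numbered 204, and 105 at 4-fold, 101 at a mean of at least 50 CPM, 364 against other Cdh5-positive cells and 185 to 255 with 1 sum left out. Fewer genes qualify under a stricter fold or mean by construction. Depth limits low genes such as Tnf, and 2 sums per genotype limit every test.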

Other observations

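Single-positive cells, which held Cdh5 and exactly 1 of Gfi1 and Neurl3, lay between arterial cells and EHT cells in the levels of Hlf, Runx1 and Gja5, genes chosen after their values were seen. Of 202 such cells 173 held Neurl3 and 29 held Gfi1. All 4 markers that were not used in the choice were detected in 27 of them (13.4%), against 75.6% of EHT cells and none of 363 arterial cells. Hlf averaged 36.4 CPM in them, between 2.36 in arterial cells and 110 in EHT cells, Runx1 averaged 94.9 CPM, between 4.85 and 211, and Gja5 averaged 365 CPM, between 929 and 123. Gja5 was used to define the arterial cells. The summed arterial level of single-positive cells ran from 60.1 CPM at the 10th percentile to 8038 CPM at the 90th. A mean in between therefore need not hold for each cell. Acta2 did not lie between the sets, at 29.2 CPM in single-positive cells against 92.4 and 183 CPM, and neither did the detection of Procr, at 79.7% against 82.1% and 94.4%, or the summed CPM of the 7 markers, at 911 against 1154 and 1104. Their median depth was 35308.5 UMIs, also between 23755 and 53635, and the part of depth in a missed UMI of Gfi1 or Neurl3 was not tested.

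Kitl, which encodes the ligand of Kit, was at 0.894, 2.24, 1.03 and 1.42 CPM in EHT cells and averaged 89.6 CPM in arterial cells, while Kit averaged 108 CPM in EHT cells and 14.9 in arterial cells. The cytokine genes Ccl4 and Tnf were at means of 8.78 and 1.22 CPM in EHT cells and 282 and 22.5 CPM in progenitors. The progenitor sums were uneven, as the 19 cytokine genes together ran from 321 to 2393 CPM across them.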
